A study of Homo sapiens with 12 samples.

Results

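Cells treated with Wee1 inhibitor II alone were set directly against cells treated with 17-AAG alone, on 6 of the 12 arrays of the series, 3 per drug. Wee1 inhibitor II was given at 2.5 µM, and 17-AAG at 40 nM was added to its own cultures 24 h later. RNA was taken 48 h after that addition, so both concentration and time on drug differed between the groups. Untreated arrays took no part, and a difference therefore says which drug left a transcript higher, not which drug moved it. Each gene was read from 1 Affymetrix probe set as a deposited linear signal, and 8651 of 19775 measured genes had a mean signal of at least 100 in either group. These 8651 genes are described here. All cells were labelled PC3, a prostate cancer line grown in medium with serum, and nothing in the labels says that replicates were separate cultures. The p-values therefore measure only the spread between these arrays, which may be technical.

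The signals did not match the PC3 label. Of 7 measured markers of prostate and PC3 cells, only STEAP1 reached a signal of 100, and HOXB13, KLK2, FOLH1 and STEAP2 lay below the array medians. CTNNA1, which encodes alpha-catenin and is known to be lost by homozygous deletion in PC3, had signals of 4576, 5039.7 and 4717 with Wee1 inhibitor II, against 2639, 2633 and 2690.5 with 17-AAG. STAT3, a transcription factor gene also known to be deleted in PC3, had signals of 1296, 1238 and 1228 with Wee1 inhibitor II, against 909, 900.1 and 941 with 17-AAG. All 12 measured markers of pigment cells reached 100, and their summed signal was 32848 to 35704 with Wee1 inhibitor II and 51117 to 56736 with 17-AAG. Of the 12, 8 were called lower and 1, S100B, higher with Wee1 inhibitor II, so the sum does not speak for each marker. Of 11 epithelial markers only KRT18 and ESRP1 reached 100. Blood markers summed to 92.5 to 106 with Wee1 inhibitor II and 77.1 to 118 with 17-AAG, and no marker of any of these lists was at 0.

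Wee1 is the kinase that keeps CDK1, the engine of mitosis, inactive by phosphorylation until DNA replication and repair are complete, and its inhibition lets cells enter mitosis early. 17-AAG blocks the ATP pocket of Hsp90, a chaperone that holds many kinases, receptors and transcription factors in an active fold, and Hsp90 blockade is known to release HSF1, the transcription factor of heat shock genes. MITF is the transcription factor that drives pigment genes in melanocytes and sets much of their metabolism, and PPARGC1A, one of its known targets, drives genes of the mitochondria. YAP, SRF and AP-1 are transcription factors that respond to cell shape, adhesion and growth signals.

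Log2 differences are given as Wee1 inhibitor II minus 17-AAG with the standard error of the limma fit over both groups. A gene was called higher or lower at a Benjamini-Hochberg adjusted p under 0.05 over all 19775 genes. Of the 8651 genes, 3741 (43.2%) were called, 1889 of them (21.8%) higher and 1852 (21.4%) lower with Wee1 inhibitor II. The median absolute difference of the called genes was 0.51, so most were modest. At least 2-fold differences were called for 248 genes (2.87%) higher and 253 (2.92%) lower, and at least 4-fold differences for 42 (0.485%) higher and 36 (0.416%) lower. The arrays of the drugs did not overlap for 5017 genes (58% of the 8651), with Wee1 inhibitor II above for 2567 (29.7%) and below for 2450 (28.3%). Over all 19775 genes 4318 (21.8%) were called, 2301 (11.6%) higher and 2017 (10.2%) lower.

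**Figure D1:**
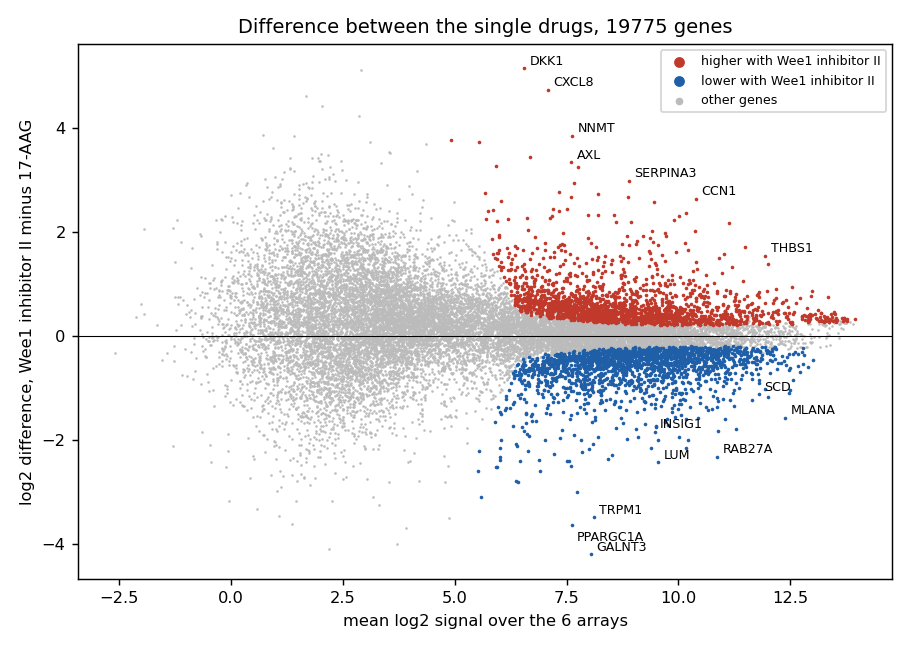
Log2 difference (Wee1 inhibitor II minus 17-AAG) against the mean log2 signal of the 6 arrays, 1 point per gene for 19775 genes. Red points are the 1889 genes called higher with Wee1 inhibitor II and blue points the 1852 called lower, both among the 8651 brighter genes. All other genes are grey, including dimmer genes that were called.

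The balance between the directions depended on the scale. Every array had the same 2% trimmed mean, but array medians were 21.25 to 23.02 with Wee1 inhibitor II and 17.66 to 19.81 with 17-AAG, and the median difference of all genes was 0.11. With each array centred on the median of all its probe sets, 630 of the brighter genes were called higher and 3148 lower, and the median difference moved to -0.13 over all genes. Quantile normalisation gave 1816 higher and 1856 lower. The calls of small differences therefore depend on the scale. Pearson's r of log2 signals across genes was 0.924 to 0.931 within Wee1 inhibitor II, 0.933 to 0.936 within 17-AAG and 0.916 to 0.927 between the drugs. The gap between the 3-prime and 5-prime ACTB probe sets, a sign of RNA quality or labelling, was 0.68 ± 0.09 (log2, SD, n = 3) with Wee1 inhibitor II and 0.96 ± 0.08 (n = 3) with 17-AAG, without overlap. The same gap for GAPDH was -0.05 ± 0.04 and -0.04 ± 0.04 in the same order, and the part of this in the results was not tested. 17-AAG replicate 2 was the lowest of its group for several stress genes.

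The 15 largest differences in favour of Wee1 inhibitor II were led by secreted and surface proteins. DKK1, a secreted antagonist of Wnt signalling, had signals of 492, 688 and 525 with Wee1 inhibitor II, against 12.5, 17.6 and 18.01 with 17-AAG (5.15 ± 0.19, adjusted p = 8.2e-09). CXCL8, the chemokine that draws neutrophils, had 705, 753 and 648 with Wee1 inhibitor II, against 26.02, 28.7 and 24.02 with 17-AAG (4.74 ± 0.12, adjusted p = 1.33e-09). NNMT, which methylates nicotinamide, had 748, 741 and 779 with Wee1 inhibitor II, against 58.3, 42.9 and 56.7 with 17-AAG (3.86 ± 0.12). With 17-AAG, DKK1 lay near or below the median of its arrays, CXCL8 slightly above and NNMT further above, and with Wee1 inhibitor II all 3 were bright on every array. With signals below 32 set to 32, the difference was 4.14 for DKK1 and 4.45 for CXCL8.

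The serine protease C1S of the complement system had signals of 336, 338 and 341 with Wee1 inhibitor II, against 25.5, 34.8 and 33.4 with 17-AAG (3.45 ± 0.15). AXL, a receptor tyrosine kinase for GAS6, had 548, 719.7 and 609 with Wee1 inhibitor II, against 77.7, 74.1 and 39.7 with 17-AAG (3.35 ± 0.22). SERPINA3, the acute phase inhibitor antichymotrypsin, had 1444, 1165 and 1408 with Wee1 inhibitor II, against 195, 125 and 197 with 17-AAG (2.98 ± 0.16). For each of these genes the arrays of the 2 drugs lay far apart, and the spread within a drug was small beside the gap. NTM, a neural adhesion protein, averaged 669.8 with Wee1 inhibitor II and 70.4 with 17-AAG (3.25 ± 0.10). IGFBP3, which binds insulin-like growth factors, averaged 568 and 73.7 in the same order (2.95 ± 0.12), the collagen chain COL5A3 419.8 and 61.3 (2.78 ± 0.12), and SCRG1 1192 and 187 (2.67 ± 0.09). The collagenase MMP1, the NF-kB scaffold CARD10, the neural membrane protein SLITRK6 and HRCT1 were dim with 17-AAG, with averages of 8.20, 12.7, 19.5 and 19.9 against 112, 169, 189 and 134 with Wee1 inhibitor II, so the sizes of their differences are rough. Setting signals below 32 to 32 reduced them to 1.81 for MMP1 and 2.40 for CARD10.

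Lower with Wee1 inhibitor II by the largest margin was GALNT3, an enzyme that starts mucin-type O-glycosylation, with signals of 65.1, 56.1 and 62.3 with Wee1 inhibitor II, against 1074, 1118 and 1204 with 17-AAG (-4.21 ± 0.09, adjusted p = 4.43e-10). PPARGC1A, the coactivator that drives mitochondrial genes, had 52.1, 55.2 and 59.6 with Wee1 inhibitor II, against 698, 658 and 722 with 17-AAG (-3.64 ± 0.10, adjusted p = 1.6e-09). TRPM1, a cation channel of melanocytes and retina, had 71.5, 85.5 and 91.4 with Wee1 inhibitor II, against 942, 907 and 941 with 17-AAG (-3.50 ± 0.10, adjusted p = 1.92e-09). These 3 genes were bright on every 17-AAG array and at most a few times the array median on every Wee1 inhibitor II array. The muscle Z-disc gene LDB3 had 84.1, 64.01 and 77.7 with Wee1 inhibitor II, against 619, 564 and 633 with 17-AAG (-3.02 ± 0.12). ABCB1, the drug efflux pump P-glycoprotein, had 85.02, 69.7 and 90.9 with Wee1 inhibitor II, against 484, 418 and 485 with 17-AAG (-2.50 ± 0.12). LUM, the matrix proteoglycan lumican, had 321, 294 and 352 with Wee1 inhibitor II, against 1700.1, 1689.8 and 1819 with 17-AAG (-2.43 ± 0.08), and it was the only one of 7 fibroblast markers with a signal of 100. The other fibroblast markers were dim on both drugs, and the summed signal of the list was 432 to 503 with Wee1 inhibitor II and 1794 to 1928 with 17-AAG.

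PDK4, the kinase that switches off pyruvate dehydrogenase, averaged 38.3 with Wee1 inhibitor II and 203 with 17-AAG (-2.41 ± 0.14). The tetraspanin TSPAN10 (-2.79 ± 0.23), the histone methyltransferase family gene PRDM7 (-2.61 ± 0.16), the Polycomb-related SCML4 (-2.42 ± 0.12), the ciliary gene CFAP61 (-2.52 ± 0.19), and the RNA genes LOC101927098 (-2.82 ± 0.22) and LINC00589 (-2.52 ± 0.21) were also lower without overlap. UBAP1L and the epoxide hydrolase EPHX1 completed the 15, with Wee1 inhibitor II signals of 29.4, 6.08 and 24.6 and 37.01, 5.46 and 31.7 that varied by more than 4-fold between replicates, so their differences of -3.10 ± 0.47 and -2.60 ± 0.56 are the least precise. Of the 30 genes, 12 had a group mean under 32 on their dim side. Averaging all probe sets of a gene ended the call for CARD10 (1.75), PPARGC1A (-1.77), UBAP1L (-1.59) and PDK4 (-1.29), and a single prior for all genes ended that of EPHX1 (adjusted p = 0.105).

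**Figure D2:**
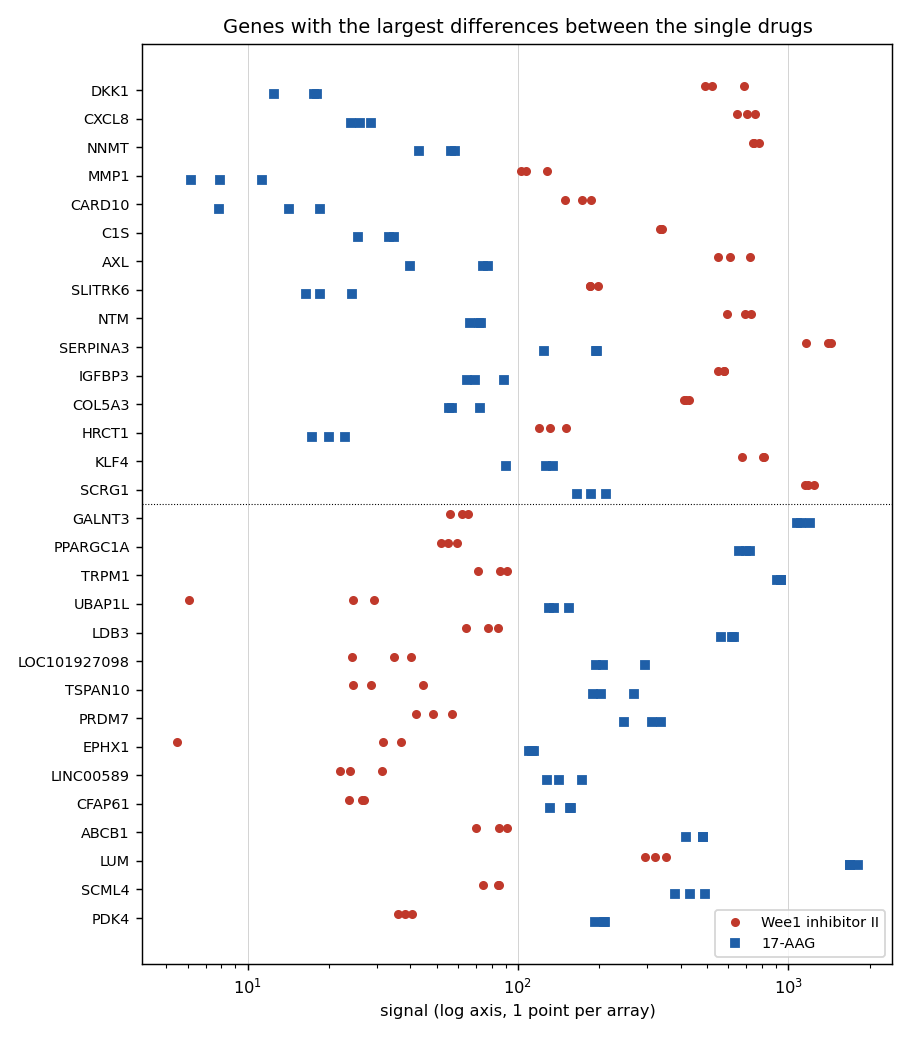
Signals of the 30 genes with the largest differences on a log axis, 1 point per array, with Wee1 inhibitor II as circles above 17-AAG as squares. Above the dotted line are the 15 genes higher with Wee1 inhibitor II, from DKK1 to SCRG1, and below it the 15 lower ones, from GALNT3 to PDK4, and the drugs' points do not overlap for any of the 30.

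Genes were then read in lists by function. A gene could reach the signal of 100 through 1 group alone, which favours genes that differ, so the counts stand beside the number measured and the median difference over all measured members. The shares called over all 8651 genes, 43.2% in all, 21.8% higher and 21.4% lower, are the background for every count. The median centring below means arrays centred on the median of all probe sets.

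**Figure D3:**
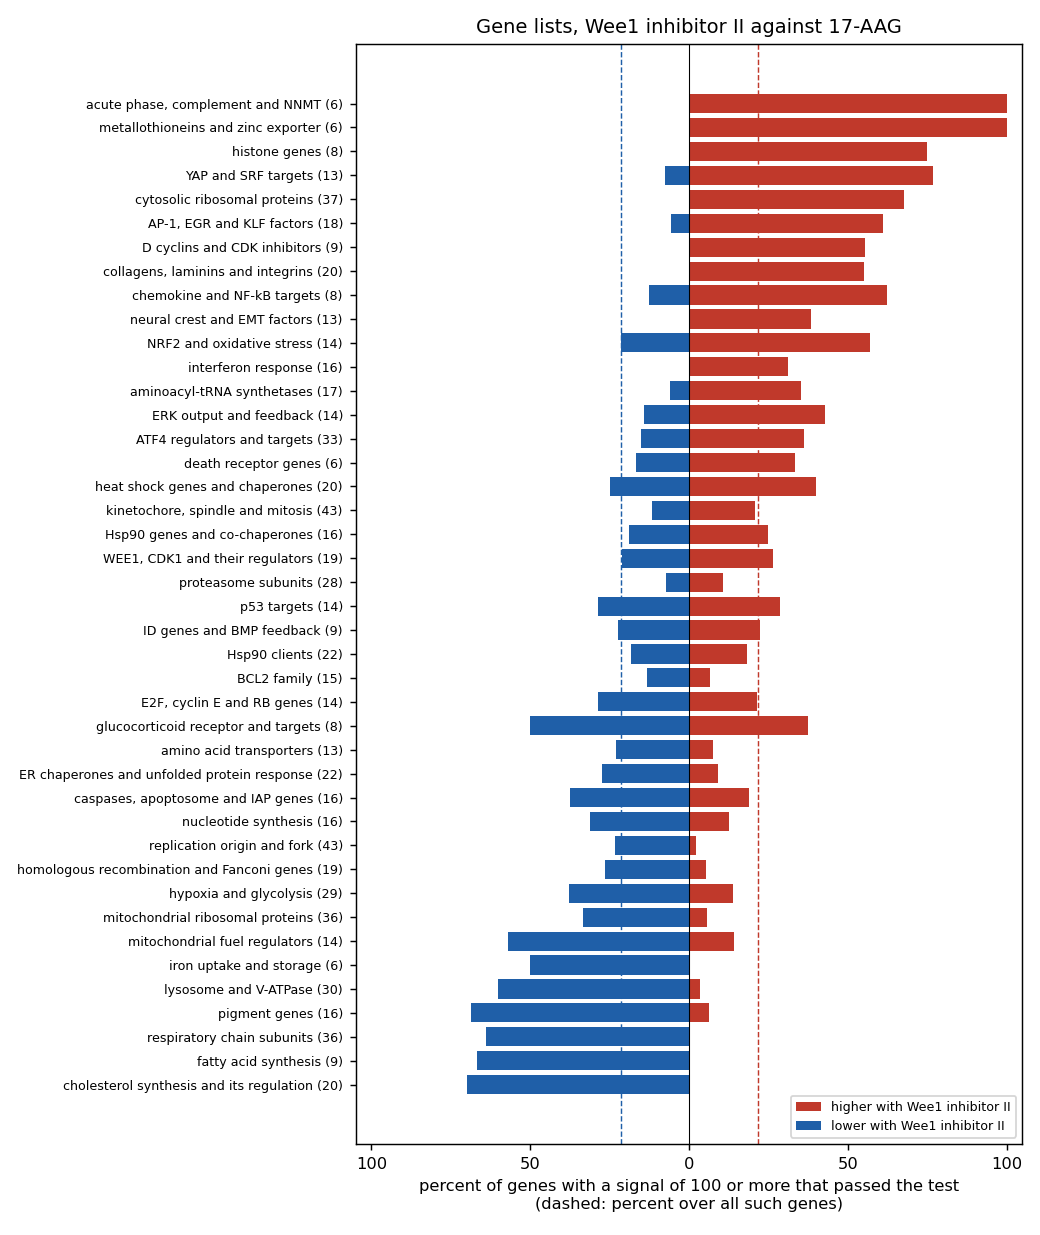
Share of each list's genes with a signal of at least 100 (number in brackets) that were called higher (red, right) or lower (blue, left) with Wee1 inhibitor II, for lists with at least 6 such genes. The dashed lines mark 21.8% and 21.4%, the shares over all 8651 genes, and acute phase genes and metallothioneins lie at the top and cholesterol synthesis at the bottom.

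Most pigment genes were lower with Wee1 inhibitor II. Of 19 listed genes 17 were measured and 16 reached 100, of which 11 were called lower and 1 higher, with a median of -1.03 over the 17. MITF had signals of 3059, 2455 and 2652 with Wee1 inhibitor II, against 5755, 6708 and 6033 with 17-AAG (-1.18 ± 0.09, adjusted p = 2.77e-06). RAB27A, which tethers melanosomes to their motor, had 877, 825 and 811 with Wee1 inhibitor II, against 4327, 4121 and 4167 with 17-AAG (-2.33 ± 0.07, adjusted p = 1.6e-09). SLC45A2, a melanosomal transporter, had 554, 478 and 601 with Wee1 inhibitor II, against 2371, 2651 and 2289 with 17-AAG (-2.17 ± 0.09). For all 3 the arrays of the drugs stood clearly apart. The melanosome matrix proteins MLANA (-1.58 ± 0.08) and PMEL (-1.04 ± 0.08), the receptor GPR143 (-1.22 ± 0.08), the melanosome transport adaptor MLPH (-0.78 ± 0.07) and the survival gene BCL2A1 (-1.06 ± 0.06) were lower as well. The small GTPase RAB38 averaged 1843 with Wee1 inhibitor II and 3675 with 17-AAG and was also called lower.

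TYRP1, an enzyme of melanin synthesis, did not pass the test, with signals of 11952, 11992 and 12440.2 with Wee1 inhibitor II, against 11119, 13458 and 13167 with 17-AAG (-0.05 ± 0.09, adjusted p = 0.781), and its arrays overlapped between the drugs. TYR, the tyrosinase of the first step, was read differently by its 3 probe sets. The brightest had 4188, 3328 and 3672 with Wee1 inhibitor II, against 3748, 4561 and 4123 with 17-AAG (-0.15 ± 0.10, adjusted p = 0.323). The other 2 were called lower when every probe set was tested, with mean signals of 1537 with Wee1 inhibitor II and 2033 with 17-AAG in one (-0.40, adjusted p = 0.0235) and 87.1 and 252 in the other (-1.53, adjusted p = 5.23e-05). SOX10, the neural crest factor upstream of MITF, averaged 1547 with Wee1 inhibitor II and 1806 with 17-AAG (-0.22 ± 0.08, adjusted p = 0.079), and a second, dimmer probe set was called lower (-0.96, adjusted p = 0.0102). The receptor gene MC1R averaged 163 and 196 in the same order (-0.27 ± 0.14, adjusted p = 0.214). GPNMB, a glycoprotein of melanosomes and lysosomes, was the 1 member called higher, with 7650.5, 6602 and 7451 with Wee1 inhibitor II, against 5038, 5292 and 5377 with 17-AAG (0.46 ± 0.08). Its other probe set had the opposite sign without a call, and the median centring ended the call of GPNMB. The list had 0 higher and 14 lower with the median centring, and 1 higher and 12 lower with quantile normalisation.

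The promoter of GPR143 is shown because it carries a sequence that MITF is known to bind. The letters searched were TCATGTG on both strands, which contain the E-box core CATGTG, in RefSeq windows (build GRCh38.p14) of 250 bases before to 50 bases after the start of each gene. It was found in 2.2% of 15384 promoters of measured genes and in 5 of 12 available promoters of the pigment list, BCL2A1, GPNMB, GPR143, TYR and TYRP1. Capitals mark the matches, which lie 61 and 33 bases before the start, and 0.08% of all promoters held at least 2. The window is chrX:9765798-9766097 on the minus strand.
GPR143: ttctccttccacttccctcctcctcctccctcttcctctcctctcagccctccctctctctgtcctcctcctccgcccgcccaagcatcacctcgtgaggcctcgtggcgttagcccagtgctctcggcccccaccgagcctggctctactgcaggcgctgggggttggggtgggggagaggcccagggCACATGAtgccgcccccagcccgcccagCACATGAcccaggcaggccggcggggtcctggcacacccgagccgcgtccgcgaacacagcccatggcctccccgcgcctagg
Of the 5 genes with a match, BCL2A1 and GPR143 were lower, GPNMB was higher at its brightest probe set, TYRP1 did not pass the test, and TYR differed by probe set. The windows of MLANA, TRPM1 and RAB27A, which were all lower, held no match.

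**Figure D4:**
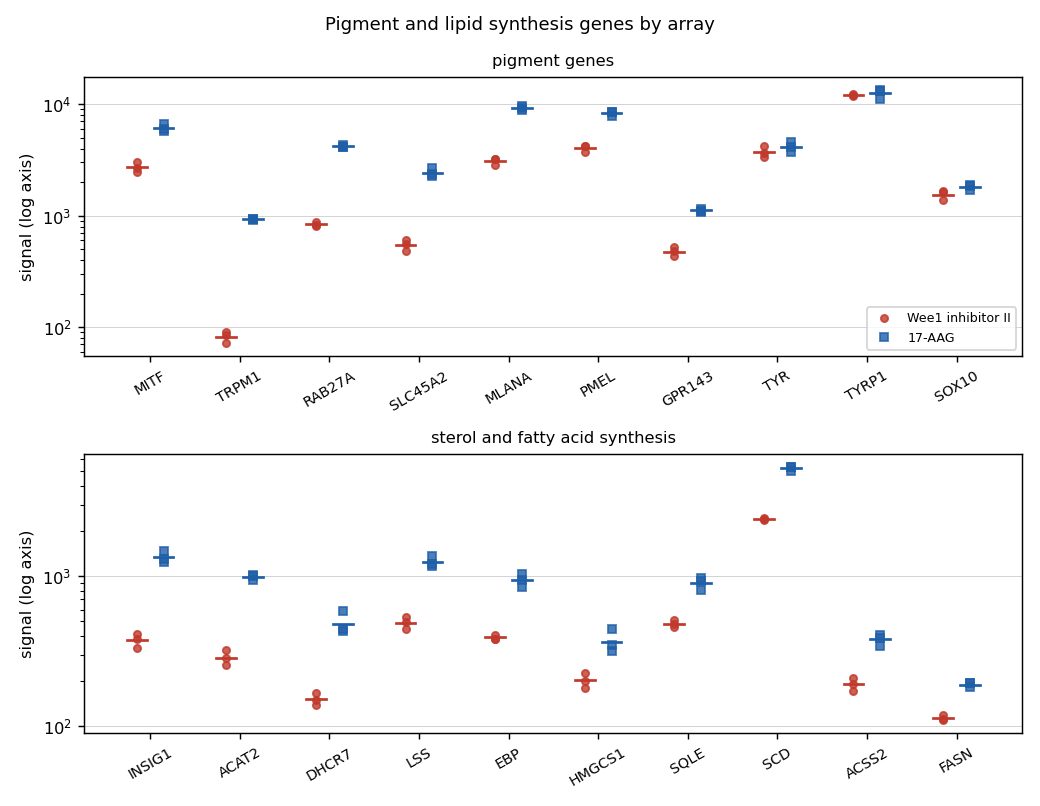
Signals on a log axis of pigment genes (top) and of genes of sterol and fatty acid synthesis (bottom), 1 point per array, Wee1 inhibitor II left of 17-AAG, with bars at the geometric mean of 3 arrays. MITF, RAB27A, MLANA and PMEL separate, TYR (brightest probe set) and TYRP1 overlap, and all 10 lipid genes lie lower with Wee1 inhibitor II.

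Targets of YAP and SRF were higher with Wee1 inhibitor II. Of 22 listed genes 20 were measured and 13 reached 100, of which 10 were called higher and 1 lower, with a median of 0.80 over the 20. CCN1, a matrix signalling protein, had signals of 3103, 3819 and 3239 with Wee1 inhibitor II, against 589.8, 477 and 568 with 17-AAG (2.64 ± 0.10, adjusted p = 8.2e-09). CCN2, the connective tissue growth factor, had 322, 353 and 349 with Wee1 inhibitor II, against 81.2, 85.3 and 94.2 with 17-AAG (1.97 ± 0.11). The tropomyosin TPM1 had 2554, 2875 and 2626 with Wee1 inhibitor II, against 690.3, 678 and 626 with 17-AAG (2.01 ± 0.07, adjusted p = 7.42e-09), and THBS1, the matrix protein thrombospondin, had 6031, 7594 and 6649 with Wee1 inhibitor II, against 2198, 2388 and 2352 with 17-AAG (1.54 ± 0.09). All 4 were higher on each Wee1 inhibitor II array than on any 17-AAG array. The Hippo pathway scaffolds AMOTL2 (1.76 ± 0.13) and AJUBA (1.58 ± 0.10) moved the same way, and FHL2, a LIM domain protein, was the 1 gene called lower (-0.38 ± 0.06).

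Matrix and adhesion genes leaned the same way. Of 31 collagen, laminin and integrin genes, all measured, 20 reached 100, and 11 were called higher and 0 lower, with a median of 0.35 over the 31. Fibronectin, FN1, had signals of 788, 809.6 and 775 with Wee1 inhibitor II, against 235, 209 and 256 with 17-AAG (1.77 ± 0.09, adjusted p = 5.95e-08). The basement membrane chains COL4A2 (1.71 ± 0.11) and COL4A1 (1.27 ± 0.10) and the integrin ITGB5 (0.57 ± 0.06) were higher too. With the median centring the list had 8 higher and 3 lower. Among neural crest and mesenchymal factors, 13 of 18 measured genes reached 100, and 5 were called higher and 0 lower, with a median of 0.25 over the 18. They were N-cadherin, CDH2 (1.01 ± 0.13), FOXD3 (1.17 ± 0.18), ZEB2 (0.53 ± 0.12), LEF1 (0.31 ± 0.08) and vimentin, VIM (0.36 ± 0.09), while ZEB1 averaged 123 with Wee1 inhibitor II and 146 with 17-AAG (-0.25 ± 0.12, adjusted p = 0.188). This balance was 2 higher and 6 lower with the median centring.

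AP-1 and Krüppel-like factors were also higher. Of 21 listed genes 19 were measured and 18 reached 100, and 11 were called higher and 1 lower, with a median of 0.44 over the 19. KLF4, a factor of differentiation and growth arrest, had signals of 813, 675 and 809.5 with Wee1 inhibitor II, against 134, 90.6 and 127 with 17-AAG (2.72 ± 0.14, adjusted p = 8.68e-08). KLF2 had 931, 768 and 836 with Wee1 inhibitor II, against 174, 144 and 188 with 17-AAG (2.33 ± 0.11, adjusted p = 4.35e-08), and the AP-1 member FOSL1 had 281, 422 and 344 with Wee1 inhibitor II, against 55.2, 67.5 and 67.3 with 17-AAG (2.45 ± 0.15, adjusted p = 4.75e-07). JUN, the partner of the FOS proteins in AP-1, had 1219, 926 and 1309 with Wee1 inhibitor II, against 496, 262 and 411 with 17-AAG (1.60 ± 0.19, adjusted p = 9.4e-05), and replicate 2 was the lowest of both groups. KLF9 (1.07 ± 0.11), FOSL2 (0.83 ± 0.08) and KLF6 (0.58 ± 0.07) were higher by less. MAFF, a small MAF factor, was lower, with 4905, 5569 and 5418 with Wee1 inhibitor II, against 8109, 8993 and 8661 with 17-AAG (-0.70 ± 0.08). Without 17-AAG replicate 2, 3 members were lower, and with the replicate number as a block in the fit the list had 12 higher and 3 lower.

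EGR1, an early growth response gene, did not pass the test, with signals of 1003, 518 and 1046 with Wee1 inhibitor II, against 1584, 806 and 1599 with 17-AAG (-0.64 ± 0.28, adjusted p = 0.138). Its replicate 2 was the lowest in both groups, and EGR1 was called lower with the replicate number as a block in the fit. It was also called lower without 17-AAG replicate 2 (-0.96, adjusted p = 0.0137) and with the median centring (-0.87, adjusted p = 0.0294). The missing call therefore does not show that it was alike on both drugs. Output genes of the ERK pathway went in both directions, and their balance depended on the scale. All 17 listed genes were measured and 14 reached 100, and 6 were called higher and 2 lower, with a median of -0.13 over the 17. Without 17-AAG replicate 2 the counts were 5 higher and 6 lower, and with the median centring 3 higher and 8 lower. The cyclin CCND1 had signals of 1714, 1971 and 1875 with Wee1 inhibitor II, against 931, 961 and 927 with 17-AAG (0.98 ± 0.07, adjusted p = 1.42e-06). The ERK phosphatase DUSP6 (0.72 ± 0.10) and the inhibitor SPRED1 (0.53 ± 0.10) were higher, while ETV4 (-0.88 ± 0.14) and SPRY4 (-0.63 ± 0.12), 2 further ERK-induced genes, were lower.

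Inflammatory genes were led by CXCL8. Of 21 listed NF-kB targets 20 were measured and 8 reached 100, and 5 were called higher and 1 lower, with a median of 0.84 over the 20. The adhesion molecule ICAM1 had signals of 998, 964 and 1026 with Wee1 inhibitor II, against 659.7, 602 and 645 with 17-AAG (0.65 ± 0.07), and NFKBIA, the inhibitor that NF-kB itself induces, had 487, 509 and 583 with Wee1 inhibitor II, against 320.1, 315 and 308 with 17-AAG (0.74 ± 0.09). The cytokine LIF (0.97 ± 0.17) and the NF-kB subunit RELB (1.01 ± 0.18) were higher at low signals. TNFAIP3, which encodes the NF-kB inhibitor A20, was lower, with 173, 153 and 154 with Wee1 inhibitor II, against 376, 455 and 345 with 17-AAG (-1.29 ± 0.11, adjusted p = 6.92e-06). The chemokine CCL2 was dim on all 6 arrays, with 11.6, 19.4 and 30.01 with Wee1 inhibitor II, against 0.94, 0.80 and 0.89 with 17-AAG. Interferon response genes reached 100 in 16 of 22 measured cases, with 5 higher and 0 lower and a median of 0.17 over the 22. Among the higher ones were the class I genes HLA-B (0.87 ± 0.08), HLA-C (0.83 ± 0.07) and B2M (0.32 ± 0.07). The share called, 31.2%, was below the 43.2% of all genes. The counts were 3 higher and 1 lower with the median centring, 4 and 0 with quantile normalisation and 3 and 0 with a single prior. Without Wee1 inhibitor II replicate 2, 8 were higher.

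The promoter of CXCL8, among the most different genes, is shown for its AP-1 site, and it was picked after the search. The motif was TGANTCA, which reads the same on both strands and was counted once, present in 5.8% of the 15384 promoters. Of 16 available promoters of the AP-1 and Krüppel-like factor list only that of FOSL2 held it (6.2%), and it was in none of the windows of DKK1, JUN and AXL. The window is chr4:73740319-73740618 on the plus strand, and the match in capitals lies 137 bases before the start.
CXCL8: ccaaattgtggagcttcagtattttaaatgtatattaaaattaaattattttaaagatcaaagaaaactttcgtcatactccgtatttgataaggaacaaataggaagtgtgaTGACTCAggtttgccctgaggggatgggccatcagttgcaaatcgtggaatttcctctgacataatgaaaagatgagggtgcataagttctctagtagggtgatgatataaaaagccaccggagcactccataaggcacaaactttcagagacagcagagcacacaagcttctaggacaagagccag

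Acute phase and complement genes with a signal of 100 were higher. Of 17 listed genes 14 were measured and 6 reached 100, and all 6 were called higher, with a median of 1.49 over the 14. NNMT, C1S and C1R reached 100 with Wee1 inhibitor II only, which favours a higher call. Over all 14 measured genes 7 were called higher and 0 lower. Beside NNMT, C1S and SERPINA3, they were C1R, the partner protease of C1S, with signals of 322, 290.4 and 288 with Wee1 inhibitor II, against 95.99, 86.9 and 85.2 with 17-AAG (1.75 ± 0.11, adjusted p = 4.24e-07), CD55, a complement inhibitor (0.69 ± 0.10), and CD59. The other 8 measured members stayed below 100 on both drugs.

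Metallothioneins, small proteins that bind zinc and copper, were higher without exception among the readable members. The list of 9 genes also holds SLC30A1, a zinc exporter. Of the 9 genes 8 were measured and 6, all metallothioneins, reached 100 and were called higher, with a median of 1.25 over the 8. SLC30A1 lay below 100 on both drugs and was not called (-0.02 ± 0.14, adjusted p = 0.95). MT2A had signals of 3285, 4044 and 3473 with Wee1 inhibitor II, against 1213, 1271 and 1113 with 17-AAG (1.58 ± 0.09, adjusted p = 1.55e-07). MT1X had 1948, 2452 and 1990.1 with Wee1 inhibitor II, against 712, 729.9 and 594 with 17-AAG (1.65 ± 0.10, adjusted p = 4.37e-07), and MT1H had 977, 909 and 1283 with Wee1 inhibitor II, against 287, 300.2 and 140.3 with 17-AAG (2.19 ± 0.24). MT1G (1.35 ± 0.16) and MT1E (0.89 ± 0.12) were higher as well. Metallothionein genes are close copies of one another, so probe sets may read more than 1 of them.

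The promoters of 3 metallothioneins are shown because they share the metal response element. The letters searched were TGCACNC and TGCGCNC on both strands, found in 35.0% of the 15384 promoters, with at least 4 matches in 0.75%. All 4 available promoters of the list, those of MT1H, MT1X, MT2A and SLC30A1, held a match, and MT2A and MT1H held 8 each and MT1X 4. Capitals mark the matches in MT2A (chr16:56608334-56608633, plus strand), MT1X (chr16:56682220-56682519, plus strand) and MT1H (chr16:56669564-56669863, plus strand).
MT2A: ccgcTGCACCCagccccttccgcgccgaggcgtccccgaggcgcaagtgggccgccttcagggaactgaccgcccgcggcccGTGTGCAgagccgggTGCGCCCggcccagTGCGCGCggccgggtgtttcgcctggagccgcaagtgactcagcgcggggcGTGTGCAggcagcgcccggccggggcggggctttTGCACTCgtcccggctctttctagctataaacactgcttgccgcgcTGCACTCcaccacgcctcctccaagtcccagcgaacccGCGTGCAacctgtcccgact
MT1X: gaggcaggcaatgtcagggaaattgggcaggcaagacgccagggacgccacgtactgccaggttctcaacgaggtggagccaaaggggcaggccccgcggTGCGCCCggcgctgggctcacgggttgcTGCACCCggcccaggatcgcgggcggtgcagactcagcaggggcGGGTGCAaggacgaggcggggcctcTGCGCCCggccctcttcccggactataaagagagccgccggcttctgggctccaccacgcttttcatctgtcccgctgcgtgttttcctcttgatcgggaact
MT1H: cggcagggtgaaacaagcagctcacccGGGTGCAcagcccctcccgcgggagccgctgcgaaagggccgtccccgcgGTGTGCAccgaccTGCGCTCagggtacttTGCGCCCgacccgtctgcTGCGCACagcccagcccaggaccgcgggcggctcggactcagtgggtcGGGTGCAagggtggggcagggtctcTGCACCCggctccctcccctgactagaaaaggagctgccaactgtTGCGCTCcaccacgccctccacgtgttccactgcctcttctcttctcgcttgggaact
In each the matches lie on both strands, and all lie before the start except 1 of MT2A.

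Cholesterol synthesis was lower with Wee1 inhibitor II at many steps of the pathway. Of 30 listed genes 24 were measured and 20 reached 100, and 14 were called lower and 0 higher, with a median of -0.78 over the 24. INSIG1, the sterol sensor that retains SREBP in the endoplasmic reticulum and is itself an SREBP target, had signals of 412, 335 and 379 with Wee1 inhibitor II, against 1248, 1476 and 1310.5 with 17-AAG (-1.84 ± 0.09, adjusted p = 6.66e-08). ACAT2, which makes acetoacetyl-CoA at the entry, had 257, 286 and 321 with Wee1 inhibitor II, against 1022, 1000.2 and 949 with 17-AAG (-1.79 ± 0.09, adjusted p = 6.04e-08). DHCR7, the last step to cholesterol, had 167, 139 and 149.8 with Wee1 inhibitor II, against 586, 432 and 442 with 17-AAG (-1.67 ± 0.12, adjusted p = 1.77e-06). The cyclase LSS (-1.35 ± 0.09), the isomerase EBP (-1.27 ± 0.08), the epoxidase SQLE (-0.90 ± 0.08) and the synthase HMGCS1 (-0.85 ± 0.13) lay between these in the pathway and were lower too. The counts were 14 lower and 0 higher with quantile normalisation and with a single prior. The sterol element TCACNCCAC, searched on both strands, was in 1 of 21 available promoters of the list, that of SREBF2, and in 1.1% of all 15384.

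Fatty acid synthesis moved with it. Of 11 listed genes 10 were measured and 9 reached 100, and 6 were called lower and 0 higher, with a median of -0.44 over the 10. SCD, which places the first double bond in fatty acids, had signals of 2424, 2359 and 2428 with Wee1 inhibitor II, against 5028, 5376 and 5373 with 17-AAG (-1.13 ± 0.07, adjusted p = 2.74e-07). ACSS2, which makes acetyl-CoA from acetate, had 171, 209.9 and 192 with Wee1 inhibitor II, against 407, 344 and 389 with 17-AAG (-0.99 ± 0.10). The carboxylase ACACA (-0.54 ± 0.07), the synthase FASN (-0.74 ± 0.11) and the elongase ELOVL6 (-0.61 ± 0.11) were lower by less. No gene of either lipid list was called higher.

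Genes of mitochondrial fuel use and respiration were lower with Wee1 inhibitor II beside PPARGC1A. Of 18 fuel regulators, all measured, 14 reached 100, and 8 were called lower and 2 higher, with a median of -0.16 over the 18 (2 lower and 1 higher with averaged probe sets). The nuclear receptors ESRRA (-0.63 ± 0.11) and PPARA (-0.53 ± 0.10), both partners of PPARGC1A, the mitochondrial DNA factor TFAM (-0.36 ± 0.08) and the fatty acid dehydrogenase ACADM (-0.50 ± 0.07) were lower. PDP1, the phosphatase that switches pyruvate dehydrogenase on, was higher, with signals of 2593, 2995 and 2675 with Wee1 inhibitor II, against 1557, 1730.3 and 1583 with 17-AAG (0.76 ± 0.08), opposite to the pyruvate dehydrogenase kinases PDK4 and PDK1 (-1.08 ± 0.09).

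Subunits of the respiratory chain were lower, mostly by small amounts. Of 40 listed genes 36 were measured and all reached 100, and 23 were called lower and 0 higher, with a median of -0.30. ATP5MC1, a ring subunit of the ATP synthase, had signals of 926, 885 and 799 with Wee1 inhibitor II, against 1689, 2024 and 1599 with 17-AAG (-1.02 ± 0.09, adjusted p = 9.92e-06). The complex I subunits NDUFA8 (-0.75 ± 0.08), NDUFB8 (-0.70 ± 0.07), NDUFS1 (-0.65 ± 0.06) and NDUFS3 (-0.63 ± 0.07) were lower. A single prior for all genes left 13 calls, all lower. Of 36 mitochondrial ribosomal proteins 12 were lower and 2 higher, with a median of -0.16 (5 higher without 17-AAG replicate 2), led by MRPS30 (-0.82 ± 0.07) and MRPL35 (-0.88 ± 0.09).

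Cytosolic ribosomal proteins went the other way, and this depended on the scale. Of 50 listed genes 37 were measured, all above 100, and 25 were called higher and 0 lower, with a median of 0.30. RPL12 had signals of 13275, 13301 and 13689.8 with Wee1 inhibitor II, against 9137, 10274 and 9935 with 17-AAG (0.46 ± 0.08), and RPL14 had 8875, 9434 and 8996 with Wee1 inhibitor II, against 6644, 7085 and 6635 with 17-AAG (0.42 ± 0.07). Quantile normalisation left 4 higher, the median centring 0 and a single prior 3, and leaving out 1 array at a time gave 10 (without Wee1 inhibitor II replicate 3) to 35 (without 17-AAG replicate 2). The bright reference genes ACTB (0.29 ± 0.09, adjusted p = 0.0464) and GAPDH (0.28 ± 0.09, adjusted p = 0.0492) shifted by about as much and lost their calls under the same normalisations.

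Lysosomal genes were mostly lower. Of 35 listed genes 31 were measured and 30 reached 100, and 18 were called lower and 1 higher, with a median of -0.28 over the 31. The proton pump subunit ATP6V0C had signals of 938, 892 and 907 with Wee1 inhibitor II, against 1499, 1599 and 1485 with 17-AAG (-0.74 ± 0.07, adjusted p = 6.92e-06). NPC1, which exports cholesterol from lysosomes, had 557, 462 and 544 with Wee1 inhibitor II, against 1015, 806 and 972 with 17-AAG (-0.84 ± 0.10), and the pump subunits ATP6V1D (-0.58 ± 0.07) and ATP6V1H (-0.59 ± 0.09) were lower. SQSTM1, the autophagy receptor p62, was the member called higher (0.57 ± 0.07). A single prior left 6 lower.

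Of 29 hypoxia and glycolysis genes at a signal of 100, 11 were called lower and 4 higher, with a median of -0.21 over 30 measured (3 lower and 2 higher with a single prior). The aldolase ALDOC (-1.08 ± 0.12) and the regulatory kinase PFKFB4 (-0.85 ± 0.09) were lower. NDRG1, a stress and hypoxia gene, had signals of 1131, 1180.3 and 1127 with Wee1 inhibitor II, against 475, 432 and 507 with 17-AAG (1.28 ± 0.08, adjusted p = 2.74e-07) and was higher, as was the glucose transporter SLC2A3 (0.73 ± 0.10). HIF1A, the hypoxia factor and an Hsp90 client, had 4800.1, 5159 and 4747 with Wee1 inhibitor II, against 2962, 3194 and 3325 with 17-AAG (0.63 ± 0.07, adjusted p = 6.38e-05). Of 8 measured genes of iron uptake and storage 6 reached 100, and 3 were called lower and 0 higher, with a median of -0.17 over the 8. The iron transporter SLC11A2 had signals of 162, 170.2 and 165 with Wee1 inhibitor II, against 848, 797 and 794 with 17-AAG (-2.29 ± 0.08, adjusted p = 4.89e-09). The transferrin receptor TFRC (-0.83 ± 0.11) and the iron-sensing aconitase ACO1 (-0.44 ± 0.07) were lower, while ferritin FTL did not pass (0.22 ± 0.08, adjusted p = 0.0909).

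The chaperone system targeted by 17-AAG showed a split. HSP90AA1, the inducible cytosolic Hsp90 gene, had signals of 9814, 10801 and 10407 with Wee1 inhibitor II, against 9209, 11305 and 10522 with 17-AAG (0.00 ± 0.09, adjusted p = 0.987) and overlapped fully. With quantile normalisation, however, HSP90AA1 was called lower with Wee1 inhibitor II (-0.27, adjusted p = 0.00751). HSP90AB1, the constitutive gene, had 6399, 6492 and 6325 with Wee1 inhibitor II, against 4959, 5911 and 5393 with 17-AAG (0.24 ± 0.08, adjusted p = 0.049), and its call was lost under most other settings. HSP90B1 of the endoplasmic reticulum had 3645, 3839.6 and 3579 with Wee1 inhibitor II, against 3703, 4015 and 3332 with 17-AAG (0.01 ± 0.08, adjusted p = 0.976). HSF1 averaged 195 with Wee1 inhibitor II and 217 with 17-AAG (-0.16 ± 0.16, adjusted p = 0.549). None of these 3 Hsp90 genes thus showed a difference that held on all scales.

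Heat shock genes moved in both directions. The list holds cytosolic genes with a few of the mitochondria and the endoplasmic reticulum. The Hsp70 genes HSPA1A and HSPA8 were not among the measured genes, so nothing is said of them here. Of 25 listed genes 21 were measured and 20 reached 100, and 8 were called higher and 5 lower, with a median of 0.08 over the 21, against 4 higher and 6 lower with the median centring. The Hsp40 proteins DNAJB1, with signals of 737, 685 and 754 with Wee1 inhibitor II, against 480.1, 564 and 489.6 with 17-AAG (0.51 ± 0.08, adjusted p = 0.00077), and DNAJA1, with 3296, 3009 and 3081 with Wee1 inhibitor II, against 1806, 2324 and 1739.6 with 17-AAG (0.69 ± 0.10, adjusted p = 0.000393), were higher with Wee1 inhibitor II. SERPINH1, the collagen chaperone of the endoplasmic reticulum, had 702, 649 and 631 with Wee1 inhibitor II, against 142, 121 and 134 with 17-AAG (2.32 ± 0.09, adjusted p = 1.17e-08) and was the largest difference of the list. The small heat shock proteins HSPB8 (-0.67 ± 0.07) and CRYAB (-0.73 ± 0.10) and the Hsp110 family members HSPA4 (-0.56 ± 0.08), HSPA4L (-1.28 ± 0.17) and HSPH1 (-0.33 ± 0.10) were lower, so these 5 were higher with 17-AAG. HSPB1 (0.08 ± 0.08, adjusted p = 0.52) and mitochondrial HSPD1 (0.02 ± 0.08, adjusted p = 0.924) did not pass, although 1 of the other 4 probe sets of HSPD1, a dim one, was called lower (-0.52, adjusted p = 0.0376). With quantile normalisation HSPD1 was called lower at its brightest probe set (-0.26, adjusted p = 0.00725). Without Wee1 inhibitor II replicate 1 or 17-AAG replicate 3 the number called higher was 5.

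Of 16 measured Hsp90 genes and co-chaperones, all at 100, 4 were higher and 3 lower, with a median of 0.01. The median centring gave 0 higher and 6 lower, and the counts fell to 2 higher without 17-AAG replicate 1 or Wee1 inhibitor II replicate 3 and to 1 lower without 17-AAG replicate 1 or 3 or Wee1 inhibitor II replicate 2. The kinase adaptor CDC37 (0.37 ± 0.08) was higher, and the steroid receptor co-chaperone FKBP5 (-0.45 ± 0.10) and the Hsp70 to Hsp90 linker STIP1 (-0.33 ± 0.10, adjusted p = 0.0312) were lower. Of 34 listed Hsp90 clients 29 were measured and 22 reached 100, with 4 higher and 4 lower and a median of 0.06 over the 29 (3 higher and 7 lower with the median centring). IGF1R, the insulin-like growth factor receptor, had 1853, 2179 and 1760.1 with Wee1 inhibitor II, against 1198, 997 and 1195 with 17-AAG (0.77 ± 0.10, adjusted p = 0.000114), and the kinases FYN (-0.72 ± 0.07), YES1 (-0.37 ± 0.07) and AURKB (-0.57 ± 0.10) were lower. Of 28 measured proteasome subunits, all at 100, 3 were higher and 2 lower, with a median of 0.05. The counts were 9 higher and 1 lower without 17-AAG replicate 2 and 0 higher and 9 lower with the median centring.

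**Figure D5:**
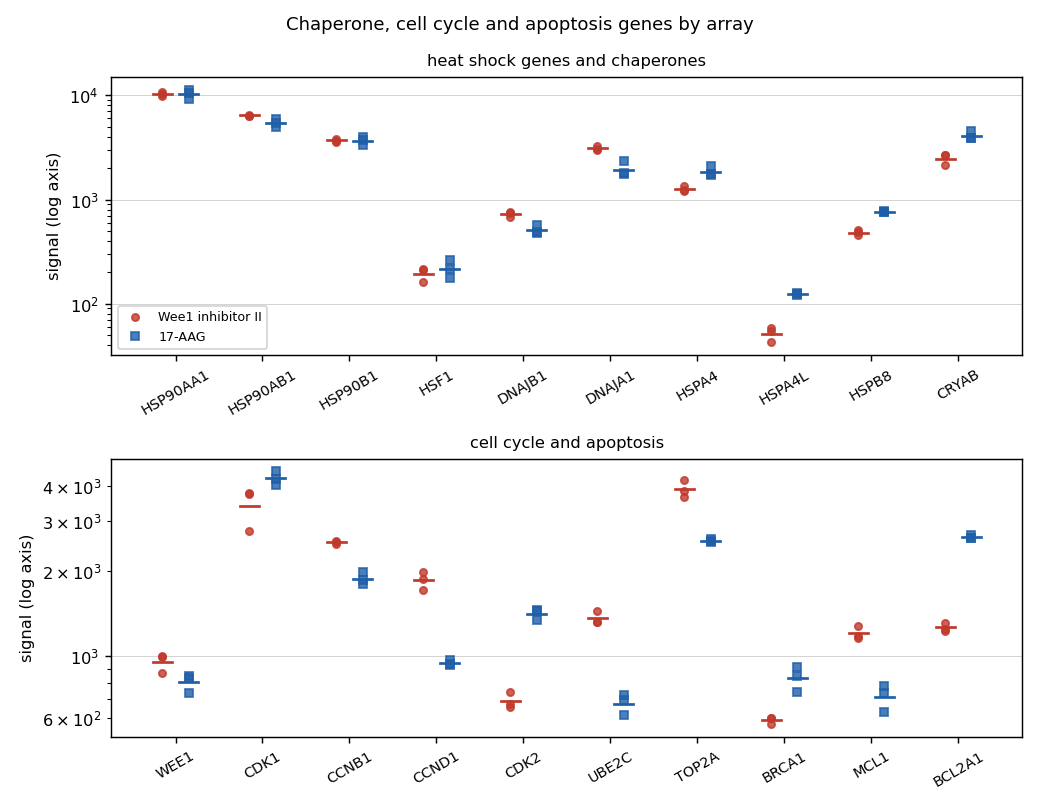
Signals on a log axis of heat shock genes and chaperones (top) and of cell cycle and apoptosis genes (bottom), 1 point per array, Wee1 inhibitor II left of 17-AAG, with bars at the geometric mean of 3 arrays. HSP90AA1 and HSP90B1 overlap, DNAJB1 and DNAJA1 lie higher and HSPA4, HSPB8 and CRYAB lower with Wee1 inhibitor II, and WEE1 (brightest probe set) lies slightly higher without passing the test.

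Amino acid stress genes under ATF4, the factor that restores amino acid supply, were mixed. All 36 listed genes were measured and 33 reached 100, and 12 were called higher and 5 lower, with a median of 0.21 over the 36. ATF4 itself had signals of 9851, 10128 and 9711 with Wee1 inhibitor II, against 7727, 6431 and 8132 with 17-AAG (0.42 ± 0.09, adjusted p = 0.0066), a call that ended with quantile normalisation (adjusted p = 0.33), with centring on the median of all probe sets (adjusted p = 0.346), with 1 prior for all genes (adjusted p = 0.0893) and with signals below 32 set to 32 (adjusted p = 0.0632). ASNS, the asparagine synthetase, had 6478, 6356 and 6685 with Wee1 inhibitor II, against 4389, 3368 and 4786 with 17-AAG (0.65 ± 0.11, adjusted p = 0.00118), and PCK2, the mitochondrial PEP carboxykinase, had 1434, 1349 and 1413 with Wee1 inhibitor II, against 752, 457 and 687 with 17-AAG (1.18 ± 0.14, adjusted p = 9.88e-05). 17-AAG replicate 2 was the lowest array for all 3, and without it the differences were 0.32 for ATF4, 0.51 for ASNS and 0.96 for PCK2, each still called. The activin subunit INHBE (2.26 ± 0.29) and PHGDH, which opens serine synthesis (0.61 ± 0.08), were higher, and WARS1, the tryptophanyl-tRNA synthetase, had 2354, 2225 and 2052 with Wee1 inhibitor II, against 911, 684 and 901 with 17-AAG (1.42 ± 0.11, adjusted p = 1.77e-06). Of 17 measured aminoacyl-tRNA synthetases, all at 100, 6 were called higher and 1, VARS1 (-0.42 ± 0.10), lower, with a median of 0.18, and the median centring left 3 higher.

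Other members were lower, the transporters SLC7A5 (-0.82 ± 0.09) and SLC7A1 (-0.39 ± 0.08), KLHL24 (-0.86 ± 0.13), the stress cytokine GDF15 (-0.79 ± 0.18, adjusted p = 0.00878) and the cystathionine lyase CTH (-0.63 ± 0.17, adjusted p = 0.02). Without 17-AAG replicate 2, their lowest 17-AAG array, GDF15 differed by -1.09 and CTH by -0.91. The stress factor DDIT3 had signals of 397, 644 and 439.8 with Wee1 inhibitor II, against 937, 418 and 926 with 17-AAG (-0.56 ± 0.27, adjusted p = 0.173), and without 17-AAG replicate 2, its lowest 17-AAG array, its difference was -0.95 (adjusted p = 0.00177). Without that array the list had 11 higher and 10 lower, and with the median centring 6 higher and 7 lower. The aromatic amino acid transporter SLC16A10 (-2.38 ± 0.18, adjusted p = 2.14e-06) was the most different of the amino acid transporters, of which 16 were measured and 13 reached 100. There 3 were lower and 1 higher, with a median of -0.20 over the 16, and 5 were lower without 17-AAG replicate 2 and 6 with the median centring.

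Of 23 measured genes of the endoplasmic reticulum response 22 reached 100, and 6 were called lower and 2 higher, with a median of -0.11 over the 23. The share called, 36.4%, was below the 43.2% of all genes, and the counts depended on the settings, with 14 lower and 0 higher with the median centring and 1 of each with a single prior. The stress sensor ERN1 (-0.86 ± 0.20, adjusted p = 0.00751), the cochaperone DNAJC3 (-0.54 ± 0.07) and the secreted factor MANF (-0.53 ± 0.09) were lower. HSPA5, the chaperone BiP, had 5549, 5775 and 5388 with Wee1 inhibitor II, against 4159, 3919.6 and 4062 with 17-AAG (0.46 ± 0.07, adjusted p = 0.000463) and was higher, a call that the median centring ended (adjusted p = 0.147).

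Cell cycle genes showed small differences around the target of the Wee1 inhibitor. WEE1 had signals of 867, 992 and 999 with Wee1 inhibitor II, against 849, 737 and 831 with 17-AAG (0.24 ± 0.08, adjusted p = 0.0572). CDK1, its substrate, had 3784, 2772 and 3746 with Wee1 inhibitor II, against 4039.9, 4499.7 and 4218 with 17-AAG (-0.32 ± 0.11, adjusted p = 0.0598), and replicate 2 was the lowest Wee1 inhibitor II array. PKMYT1, the related inhibitory kinase, averaged 215 with Wee1 inhibitor II and 251 with 17-AAG (-0.22 ± 0.10, adjusted p = 0.143). None of these 3 transcripts passed the test at its brightest probe set. A second, dimmer probe set of WEE1 averaged 288 with Wee1 inhibitor II and 227 with 17-AAG and was called higher when every probe set was tested (0.34, adjusted p = 0.0319). Of 20 measured genes of this control circuit 19 reached 100, and 5 were called higher and 4 lower, with a median of -0.03 over the 20. The median centring gave 1 higher and 8 lower, and there was 1 lower without 17-AAG replicate 1 or Wee1 inhibitor II replicate 3 and 2 lower without 17-AAG replicate 2 or 3. The mitotic cyclin CCNB1 had 2526, 2553 and 2482 with Wee1 inhibitor II, against 1847, 1985 and 1793 with 17-AAG (0.43 ± 0.07, adjusted p = 0.000598), and CCNB2 (0.27 ± 0.06) and the checkpoint kinase ATR (0.27 ± 0.07) were also higher, while the checkpoint kinase ATM (-0.93 ± 0.09) was lower.

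Mitotic genes differed singly and in both directions. Of 43 kinetochore, spindle and mitosis genes, all at a signal of 100, 9 were called higher and 5 lower, with a median of 0.04, so 32.6% were called, against 43.2% of all 8651 genes. The balance was 3 higher and 11 lower with the median centring and 3 higher and 0 lower with a single prior. UBE2C, the ubiquitin enzyme of the anaphase-promoting complex, had signals of 1439.6, 1311 and 1319 with Wee1 inhibitor II, against 726, 693 and 615 with 17-AAG (1.00 ± 0.08, adjusted p = 2.8e-06). CDC20, its activator, had 1288, 1259 and 1283 with Wee1 inhibitor II, against 822, 696 and 696 with 17-AAG (0.80 ± 0.08, adjusted p = 1.69e-05), and TOP2A, which untangles chromosomes, had 3825, 4204 and 3649.8 with Wee1 inhibitor II, against 2534, 2541 and 2597 with 17-AAG (0.60 ± 0.07, adjusted p = 8.14e-05). Without 17-AAG replicate 1 the number called higher was 5, and 2 were lower without Wee1 inhibitor II replicate 1 or 17-AAG replicate 2. MYBL2 (-0.51 ± 0.14), FOXM1 (-0.28 ± 0.08) and CDC25C (-0.44 ± 0.13), 3 drivers of mitotic entry, were lower by small amounts.

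Replication and repair genes were mostly lower where called. Of 44 replication genes, all measured, 43 reached 100, and 10 were called lower and 1 higher, with a median of -0.13 over the 44. They included the helicase subunit GINS1 (-0.59 ± 0.08), the clamp loaders RFC3 (-0.35 ± 0.07) and RFC4 (-0.34 ± 0.07) and the ligase LIG1 (-0.47 ± 0.10), while PCNA (0.01 ± 0.10, adjusted p = 0.971) and MCM2 (-0.02 ± 0.07, adjusted p = 0.903) did not pass. BRCA1, the repair factor, had signals of 600.2, 599.6 and 573 with Wee1 inhibitor II, against 909, 741 and 848 with 17-AAG (-0.49 ± 0.08, adjusted p = 0.00103), and with BLM (-0.51 ± 0.08), EXO1 (-0.50 ± 0.09), BRIP1 (-0.58 ± 0.11) and RAD51AP1 (-0.24 ± 0.07) made up the 5 called lower of 19 recombination genes at 100, with a median of -0.04 over 23 measured. MRE11 was the 1 called higher (0.26 ± 0.09, adjusted p = 0.0496). The share lower in the replication list was close to the 21.4% of all genes, and 23 of its genes were lower with the median centring and 2 with a single prior. The shares called in either direction, 25.6% for replication and 31.6% for recombination, were below the 43.2% of all genes. The recombination list had 0 higher and 9 lower with the median centring, and 0 higher and 2 lower with a single prior.

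Of 16 measured genes around E2F, cyclin E and RB 14 reached 100, and 3 were called higher and 4 lower, with a median of -0.12 over the 16, against 2 higher and 8 lower with the median centring. CDK2, which drives S phase and is also a known MITF target, had signals of 658, 741 and 675 with Wee1 inhibitor II, against 1447, 1338 and 1442 with 17-AAG (-1.03 ± 0.07, adjusted p = 1.11e-06). RB1, the retinoblastoma gene, had 767, 843 and 841 with Wee1 inhibitor II, against 425, 483 and 517 with 17-AAG (0.79 ± 0.09, adjusted p = 3.8e-05), and UHRF1, which maintains DNA methylation at replication, had 1142, 1494 and 1205 with Wee1 inhibitor II, against 587, 746 and 598 with 17-AAG (0.99 ± 0.11, adjusted p = 5.91e-05). Of 11 measured D cyclins and CDK inhibitors 9 reached 100, with a median of 0.30 over the 11, and 5 were higher and 0 lower, CCND1, CDKN1C (1.19 ± 0.14), CDKN1B (0.42 ± 0.10), CDKN2A (0.30 ± 0.08) and CDKN1A (0.78 ± 0.26, adjusted p = 0.0497). With the median centring 2 were higher and 1 lower. Without Wee1 inhibitor II replicate 1 the number higher was 2 and without 17-AAG replicate 1 it was 3, and the call of CDKN1A, the p53-induced inhibitor, was lost without either.

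Histone genes of the replication-dependent clusters were higher. Of 20 listed genes 13 were measured and 8 reached 100, and 6 were called higher and 0 lower, with a median of 1.02 over the 13. H2BC12 had signals of 1652, 1505 and 1773 with Wee1 inhibitor II, against 434, 434 and 430.0 with 17-AAG (1.92 ± 0.07, adjusted p = 1.03e-08), and H2AC6 had 378, 367 and 365 with Wee1 inhibitor II, against 76.6, 69.8 and 63.5 with 17-AAG (2.41 ± 0.11, adjusted p = 3.67e-08). H1-2, a linker histone, had 786, 605 and 705 with Wee1 inhibitor II, against 335, 275 and 178 with 17-AAG (1.45 ± 0.18). Most histone messages of this kind lack a poly(A) tail, from which 3-prime labelling starts. Histone genes are also near copies, so probe sets may share targets.

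Apoptosis genes differed singly. Of 15 BCL2 family genes at a signal of 100, 1 was higher and 2 lower, with a median of 0.02 over 18 measured. MCL1, a short-lived survival protein, had signals of 1155, 1272 and 1171 with Wee1 inhibitor II, against 778, 633 and 739 with 17-AAG (0.75 ± 0.09, adjusted p = 5.51e-05). BCL2A1, a survival gene that MITF is known to drive, had 1309, 1244 and 1227 with Wee1 inhibitor II, against 2676, 2615 and 2604 with 17-AAG (-1.06 ± 0.06, adjusted p = 2.98e-07). BNIP3 (-0.32 ± 0.08), a mitophagy receptor, was the other lower gene. The initiators BCL2L11 (-0.57 ± 0.21, adjusted p = 0.0825) and PMAIP1 (0.24 ± 0.10, adjusted p = 0.115), the survival gene BCL2L1 (0.03 ± 0.15, adjusted p = 0.927), BAD (0.46 ± 0.16, adjusted p = 0.0558) and BID (0.26 ± 0.10, adjusted p = 0.079) did not pass at their brightest probe sets. Without 17-AAG replicate 2 the difference of BCL2L11 was -0.77 (adjusted p = 0.022), 1 of its other 6 probe sets was called lower (-1.03, adjusted p = 0.000453), and both other probe sets of BID were called higher (0.57 and 0.76).

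Of 17 measured genes of caspases, apoptosome and inhibitors of apoptosis 16 reached 100, and 3 were higher and 6 lower, with a median of -0.22 over the 17. The counts were 1 higher and 9 lower with the median centring, 1 of each with a single prior, and 1 higher and 3 lower without 17-AAG replicate 1. BIRC2, an inhibitor that also regulates NF-kB, had signals of 1739, 2006 and 1898 with Wee1 inhibitor II, against 1019, 818 and 854 with 17-AAG (1.07 ± 0.09, adjusted p = 4.96e-06). The apoptosome scaffold APAF1 (-0.77 ± 0.13), cytochrome c, CYCS (-0.38 ± 0.08), AIFM1 (-0.50 ± 0.09) and XIAP (-0.30 ± 0.08) were lower, and CASP9 (0.55 ± 0.14) was higher. Survivin, BIRC5, averaged 1482 with Wee1 inhibitor II and 1426 with 17-AAG (0.06 ± 0.07, adjusted p = 0.663), and 1 of its dimmer probe sets was called higher (0.88, adjusted p = 0.000936). The receptor TNFRSF12A, which binds TWEAK, had 774, 1066 and 873 with Wee1 inhibitor II, against 272, 244 and 199 with 17-AAG (1.92 ± 0.13, adjusted p = 8.46e-07), and TNFRSF21 (-1.04 ± 0.13) was lower. Of 12 measured death receptor genes 6 reached 100, with 2 higher and 1 lower and a median of 0.10 over the 12. Of 17 measured p53 targets 14 reached 100, and 4 were higher and 4 lower, with a median of 0.01 over the 17, among them TP53I3 (0.82 ± 0.15), DDB2 (0.44 ± 0.09) and the fructose bisphosphatase TIGAR (-0.63 ± 0.07), and 2 were higher without Wee1 inhibitor II replicate 1 or 17-AAG replicate 3 (1 higher and 5 lower with the median centring).

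Several receptor pathways left single marked differences. WNT5A, a ligand of non-canonical Wnt signalling, had signals of 555, 589 and 554 with Wee1 inhibitor II, against 116, 96.1 and 129 with 17-AAG (2.33 ± 0.11, adjusted p = 4.8e-08), beside DKK1 and LEF1 as the 3 of 4 readable Wnt genes called higher, with a median of 0.38 over 12 measured. ID1, an inhibitor of differentiation factors induced by BMP, had 140.3, 150.3 and 152 with Wee1 inhibitor II, against 49.4, 33.3 and 54.5 with 17-AAG (1.72 ± 0.20, adjusted p = 5.58e-05). ID3 (0.71 ± 0.13) was higher, ID4 (-0.67 ± 0.10) and the decoy receptor BAMBI (-0.41 ± 0.10) were lower, and ID2 (0.11 ± 0.10, adjusted p = 0.551) did not pass. Of 16 measured genes of the list 9 reached 100, and 2 were higher and 2 lower, with a median of 0.15 over the 16.

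The receptor for dioxins, AHR, had signals of 400.3, 393 and 394 with Wee1 inhibitor II, against 225, 222 and 280.1 with 17-AAG (0.72 ± 0.10, adjusted p = 0.000265), and its repressor AHRR, a target, had 588, 562 and 587 with Wee1 inhibitor II, against 218, 245 and 206 with 17-AAG (1.38 ± 0.09, adjusted p = 4.28e-07). NQO1, a quinone reductase shared with the NRF2 pathway that also reduces 17-AAG, had 6270.2, 6366 and 6563 with Wee1 inhibitor II, against 3341, 3579.8 and 3366 with 17-AAG (0.90 ± 0.07, adjusted p = 2.28e-06). TIPARP, another target of the receptor, was lower (-0.37 ± 0.11, adjusted p = 0.0313), and ALDH3A1 lay below the array median on all 6 arrays. The receptor list had 5 of 9 measured genes at 100, with 3 higher and 1 lower and a median of 0.72 over the 9. Of 15 measured NRF2 genes 14 reached 100, and 8 were called higher and 3 lower, with a median of 0.25 over the 15, but 1 higher and 3 lower with the median centring. Glucocorticoid receptor targets were split. Of 10 measured genes 8 reached 100, and 3 were called higher and 4 lower, with a median of 0.19 over the 10 and -0.13 over the 8. TSC22D3 had 630.0, 608 and 594 with Wee1 inhibitor II, against 288, 128 and 293 with 17-AAG (1.46 ± 0.24, adjusted p = 0.000918), or 1.07 without 17-AAG replicate 2, and DUSP1 (-0.83 ± 0.11), SGK1 (-0.42 ± 0.07), GLUL (-0.45 ± 0.07) and FKBP5 were lower.

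The arrays of cells given both drugs show where these genes lay under the combination, as values with no test. The genes counted here were picked for a wide gap between the single drugs, which favours combination values between them. The same counts over all brighter genes were not made. Of the 42 genes at least 4-fold higher with Wee1 inhibitor II, 31 had all 3 combination arrays between those of the single drugs, without overlap. For 3 genes all 3 lay at or above the lowest Wee1 inhibitor II array, and for 4 at or below the highest 17-AAG array. On a scale from 0 at the 17-AAG mean to 1 at the Wee1 inhibitor II mean, the median of these genes was 0.29, and 31 lay closer to 17-AAG. Of the 36 genes at least 4-fold lower, 29 lay between, 24 lay closer to 17-AAG, and the median was 0.32. CXCL8 had signals of 62.2, 71.96 and 71.8 with both drugs and NNMT 94.1, 111 and 117, close to the 17-AAG side. GALNT3 had 614, 525 and 537 and TRPM1 490.0, 536 and 561, between the drugs. MITF had 7118, 6941 and 7219 and DNAJB1 874, 885 and 908, both above either single drug. INSIG1 had 301, 319 and 308 and so lay below both single drugs.

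The limit of 100 did not set the share of calls abruptly. Of 241 genes whose brighter group had a mean of 100 to 110, 57 were called, and of 246 genes at 90 to 100, 55 were called. The spread within groups set what could be seen, with a median SD of 0.09 (log2) above a signal of 1024, 0.11 from 256 to 1024, 0.16 from 64 to 256, 0.34 from 16 to 64 and 0.99 below 16.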

How the data were processed

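Per the labels' protocols, biotin was built into amplified RNA with the Affymetrix 3-prime IVT chemistry before hybridisation. The deposited intensity values, 1 per probe set and array, are linear. Partek 6.5 and RMA appear in the submitters' processing notes, without an order. Here they were log2 transformed and not normalised again. Each of 19775 symbols was read from its brightest probe set by mean log2 signal on these 6 arrays (41091 probe sets had 1 symbol, 1801 several, 11721 none, and 62 were controls). No detection calls were used.

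The 3 arrays per drug were compared with limma 3.58.1 in R 4.3.3 (lmFit, eBayes with an intensity trend, no block), with Benjamini-Hochberg adjustment over all genes. Deviations of same-numbered arrays from their group means correlated weakly across genes (r 0.085, 0.061 and -0.026 for replicates 1 to 3). With 3 arrays per drug this does not settle whether the numbers pair the arrays. Simulated data for this comparison held 19775 genes with independent normal noise, and changes were planted only in genes with a mean signal of at least 100. There the fit recovered 66% of 50 planted 1.5-fold, 94% of 100 planted 2-fold and 100% of 50 planted 4-fold changes, with 6 false calls. Far fewer genes were changed than the 4318 called in the data, so these rates need not hold for the data or for dimmer genes.

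The rule named the 15 largest called, non-overlapping differences per direction, up to 5 genes of smallest p in each of 48 lists, and a fixed set of drug target, cell cycle and apoptosis genes. Others, such as PMEL, TYR, HSPA4, SQLE, FHL2, MAFF and VIM, were named after their values were seen. Of the fixed set, HSPA1A, HSPA8 and BBC3 were not among the measured genes and were not tested. The genes, lists and tests were chosen with earlier results of these data known. Alternatives were other variance priors, array weights, 11 arrays in 1 fit, a replicate block, other scalings, probe set rules, signal limits and thresholds, and each array left out in turn.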

Additional observations from a re-analysis of the deposited data

How the results depend on the processing

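Called genes with a signal of at least 100 numbered 3741 (1889 higher and 1852 lower with Wee1 inhibitor II). A single prior for all genes gave 1813 (860 and 953), averaging probe sets per gene 2240 (1121 and 1119), testing every probe set 5707 (2853 and 2854), a 2-fold minimum 501 (248 and 253), and an adjusted p under 0.01 left 1257 higher. Centring arrays on the median of all probe sets gave 630 higher and 3148 lower. Over all genes, 4318 became 2300, 2874, 6968 and 901 under the first 4 settings, and 2807 at an adjusted p under 0.01. Every probe set means more tests, and the 2-fold minimum and the stricter p remove calls by construction; otherwise the cause was not tested. With a replicate block the counts were 3701 and 4178, and EGR1 (-0.64, adjusted p = 8.95e-05) and BCL2L11 (-0.57, adjusted p = 0.0184) were called lower. Replicates 1 and 2 of Wee1 inhibitor II correlated best with their own number in 17-AAG, replicate 3 did not. Leaving out 1 array at a time gave 3034 to 3551 genes (1459 to 1785 higher, 1518 to 1766 lower), and 3386 to 4017 over all genes. The other settings kept these counts within 1.5 times. The sign turned for SLC7A1 (0.0043), E2F7 (0.0465) and PGD (-0.50) with averaged probe sets and for PSMD8 (-0.033) with the median centring, none of them called there. It also turned for HSP90AA1 (-0.27) and HSPD1 (-0.26) with quantile normalisation, where both were called lower. The cause was not tested. PPAT has another probe set called in the opposite direction, HSPD1, not called, has 1 called lower, and for 9 uncalled named genes another probe set was called in the same direction. Over 312 named genes and all settings, 5541 values kept direction and call, 559 lost the call, 59 gained it, 53 uncalled values moved and 6 turned. Below a signal of 64, spread between replicates limits what can be called.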

Other observations

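Replicate 2 stood apart for several fast-responding genes. EGR1 had its lowest signal on replicate 2 of both drugs, and so did JUN and KLF4. Among stress genes 17-AAG replicate 2 was the lowest of its group for DDIT3 (937, 418 and 926 over the 3 replicates of 17-AAG), GDF15 (3436, 1834 and 3366), TSC22D3 (288, 128 and 293), CTH (1714, 1014 and 1856) and GADD45A (1535, 765 and 1559), whose difference was 0.65 ± 0.21, adjusted p = 0.0491 with all arrays and 0.31 without that array. On Wee1 inhibitor II arrays DDIT3 was highest on replicate 2 (397, 644 and 439.8), and GDF15 (1583, 1618 and 1608) and TSC22D3 (630.0, 608 and 594) were even. The part of this in the results was not tested.

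Purine and pyrimidine synthesis did not move as a block. Of 16 measured genes, all at a signal of 100, with a median of 0.00, 2 were higher and 5 lower. IMPDH2 was higher, at 5691, 5192 and 5638 with Wee1 inhibitor II, against 3733, 4154 and 3976 with 17-AAG (0.48 ± 0.07, adjusted p = 0.000615). Among the lower ones were RRM1 (-0.37 ± 0.08), RRM2B (-0.50 ± 0.11) and PAICS (-0.31 ± 0.07), while RRM2 did not pass (0.05 ± 0.09, adjusted p = 0.772). The counts were 0 higher and 6 lower with the median centring, and 1 of each with a single prior.

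NGFR, a neural crest receptor, lay below 100 on all 6 arrays, with 53.1, 69.9 and 40.9 with Wee1 inhibitor II, against 2.72, 7.63 and 9.92 with 17-AAG (3.17 ± 0.53, adjusted p = 0.000916). Setting signals below 32 to 32 ended that call.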
